A study of Mus musculus with 3 samples.

Results

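Peaks of the chromatin remodeller ATRX were counted at 10 mouse genes of the Eph receptor and ephrin family. The members were chosen by name, and their peaks by position: every deposited peak that overlaps a gene's GRCm38 span plus 5 kb on either side. There were 6 EphA receptor genes (Epha3, Epha4, Epha5, Epha6, Epha7 and Epha8), 2 EphB receptor genes (Ephb1 and Ephb2) and 2 ephrin ligand genes (Efna5 and Efnb2), of 21887 protein-coding genes in all. They held 141 of 112153 control peaks and 153 of 105674 MICAL1-FL peaks.

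The cells were primary neurons of C57BL6/J mouse embryos (E15.5 to E17.5). Lentivirus was added on day 5 of culture, and the neurons were taken at day 14 in vitro. Control neurons received mCherry, a fluorescent protein. The other neurons received MICAL1-FL, named only so in the labels. MICAL1 is known as a monooxygenase that oxidises actin filaments. Not given in the sources used here are the promoter of the virus and the number of embryos behind a culture. A peak list holds no expression values with which to check the cell type. Each condition had 1 ChIP library, so nothing said here of control against MICAL1-FL has a replicate check, and all intervals are 95% intervals for counting error alone. Peak names in the list labelled MICAL1-FL start with TBC_M2, and every MICAL1-FL value rests on the sample label.

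Eph receptors are receptor tyrosine kinases of the cell surface. Their ligands, the ephrins, are themselves held in the membrane of a neighbouring cell, by a lipid anchor in the A class and by a transmembrane stretch in the B class, so that signals pass into both cells on contact. In the nervous system the family is known for repelling growing axons, for setting up topographic maps and for shaping dendritic spines. ATRX is a helicase-like remodeller known to place histone H3.3 at repeats and to occupy GC-rich sequence, including runs of G that can fold into quadruplexes.

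Most of the genes had a peak at their start. The promoters of the 4 members with a peak lying over a start listed in the RefSeq table are shown here because the edge of the peak can be seen in them. Each is the RefSeq GRCm38.p6 sequence from 250 bases before to 50 bases after the listed start, and all 10 members had an entry. The Epha5 window is chr5:84417333-84417632 on the minus strand, and the Epha6 window is chr16:60605482-60605781 on the minus strand. The first listed Epha7 window is chr4:28812881-28813180 on the plus strand, and the Efna5 window is chr17:62881268-62881567 on the minus strand. Capitals mark bases inside a control peak, 5′ to 3′.
Epha5: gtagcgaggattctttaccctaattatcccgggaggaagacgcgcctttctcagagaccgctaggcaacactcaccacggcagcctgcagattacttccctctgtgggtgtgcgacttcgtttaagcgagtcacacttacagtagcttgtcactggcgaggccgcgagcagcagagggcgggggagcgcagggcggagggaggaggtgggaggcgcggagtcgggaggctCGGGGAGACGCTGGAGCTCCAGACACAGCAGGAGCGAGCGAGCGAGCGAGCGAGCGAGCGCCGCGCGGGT
Epha6: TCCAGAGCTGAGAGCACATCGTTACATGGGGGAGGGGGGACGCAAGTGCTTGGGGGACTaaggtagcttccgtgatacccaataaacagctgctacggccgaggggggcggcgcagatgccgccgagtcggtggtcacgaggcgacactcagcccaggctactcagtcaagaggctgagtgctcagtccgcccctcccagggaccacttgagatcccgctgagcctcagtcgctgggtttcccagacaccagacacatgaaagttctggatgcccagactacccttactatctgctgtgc
Epha7: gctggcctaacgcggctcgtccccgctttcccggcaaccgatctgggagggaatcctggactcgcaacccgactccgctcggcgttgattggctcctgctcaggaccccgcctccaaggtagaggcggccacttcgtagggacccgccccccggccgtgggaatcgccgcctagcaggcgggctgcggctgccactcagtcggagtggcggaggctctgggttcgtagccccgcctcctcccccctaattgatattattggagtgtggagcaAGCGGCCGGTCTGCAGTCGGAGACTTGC
Efna5: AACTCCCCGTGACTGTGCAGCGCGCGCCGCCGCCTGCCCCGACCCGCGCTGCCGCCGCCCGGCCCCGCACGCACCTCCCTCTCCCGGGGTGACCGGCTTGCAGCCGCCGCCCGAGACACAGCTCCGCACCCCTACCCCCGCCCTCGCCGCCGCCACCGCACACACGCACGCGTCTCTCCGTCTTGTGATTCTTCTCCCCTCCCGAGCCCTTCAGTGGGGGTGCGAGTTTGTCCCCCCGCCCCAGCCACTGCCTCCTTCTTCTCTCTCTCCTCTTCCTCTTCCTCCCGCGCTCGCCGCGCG
The control peaks covered 70 bases of the Epha5 window, 59 of the Epha6 window, 28 of the Epha7 window and all 300 of the Efna5 window. MICAL1-FL peaks covered all 300 bases at Epha5 and Epha7, 285 at Epha6 and 0 at Efna5. The listed start lay under a peak of both lists at Epha5, under a MICAL1-FL peak alone at Epha6 and Epha7, and under a control peak alone at Efna5. The start of the gene's span, used in the later counts, can differ from the listed start. At Epha5 it lay outside these peaks, 416 bp from the control and 24 bp from the MICAL1-FL peak. Peak edges are set by a few fragments and are not precise to the base.

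The promoters of the 10 genes were rich in G and C. Their GC content ranged from 55.7% at Ephb1 to 84.3% at Epha8, with a median of 65.7% over the 10 genes, against 52.7% over all 32851 promoter windows of this length. Windows that held part of a control peak had a median GC content of 63.3%, and those without one 52%. For MICAL1-FL peaks these medians were 62.7% and 52%. Promoters were also searched on both strands for a quadruplex-type motif, which was 4 runs of at least 3 G (GGG) separated by 1 to 7 bases of any kind. It was found in 2 of the 10 members, Epha4 and Epha5, and in 18.6% of all windows. The Epha5 match, at bases 176 to 200 of its window, lay wholly inside the MICAL1-FL peak and outside the control peak.
Epha5 match: GGGCGGGGGAGCGCAGGGCGGAGGG
Epha4 match: GGGGGCGGGACCTCGGGGGTGGG
No peak of either list lay in the Epha4 window. Of all windows, 32.9% of those with a control peak and 17.1% of those without held the motif, and 30.5% and 17.4% for MICAL1-FL peaks. A match says only that the letters are there.

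A control peak lay within 1 kb of the gene start at 8 of the 10 genes, and a MICAL1-FL peak at 6, all of which had a control peak as well. The start is the end of the annotated span that the gene's strand puts first, and a peak counts if any base of it is within 1 kb. Among 17492 protein-coding genes with a known strand, 23.2% had such a control peak, 22.6% such a MICAL1-FL peak and 8.91% both. Long genes had them more often, at 40.6% and 39.2% of the 1866 genes of at least 100 kb, and at 403 of these in both lists. Of the 8 members that long, 6 had a control and 5 a MICAL1-FL start peak. These shares have no test, since the members were picked by name from a larger family and not drawn at random. They do not stand for the whole family. Of its 12 remaining genes 11 had a known strand, and 3 of these had a start peak in each list and 1 in both.

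**Figure D1:**
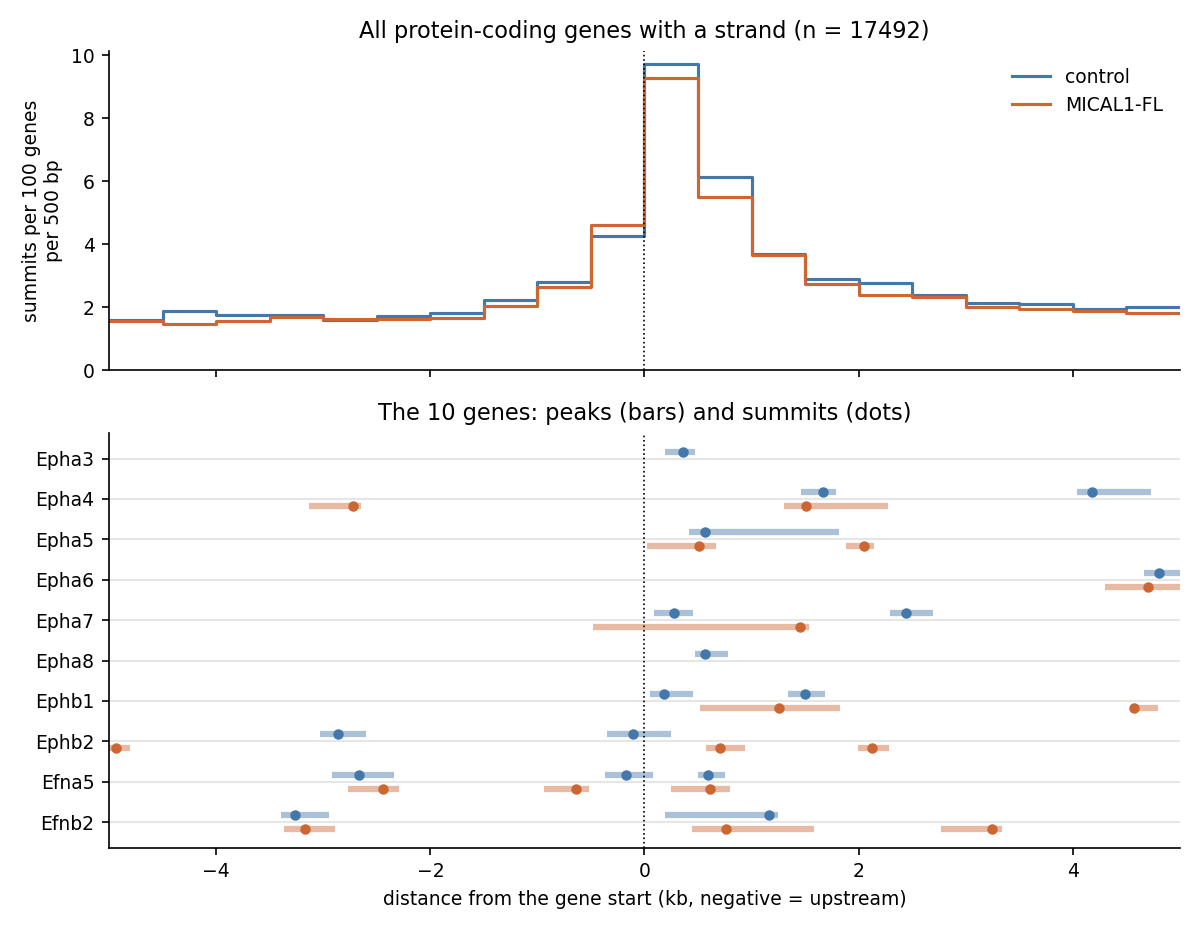
The upper panel gives summits per 100 genes in bins of 500 bp around the start of 17492 protein-coding genes, and the lower panel the peaks (bars) and summits (dots) of the 10 genes within 5 kb of their starts, control in blue and MICAL1-FL in orange. Summits of all genes are most frequent in the 500 bp after the start (9.74 control and 9.30 MICAL1-FL per 100 genes), and 8 of the 10 genes have a control peak within 1 kb of their start.

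As over all genes, most summits near the starts lay inside the gene. Summits and not genes were counted here, so Efna5 gave 2 control summits and Efnb2, with its nearest at 1164 bp, gave none. Of the 8 control summits within 1 kb of a start, 6 were downstream, and of the 5 MICAL1-FL summits 4 were. Over all genes 2777 of 4010 control and 2586 of 3855 MICAL1-FL summits were downstream.

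Among the EphA receptors, Epha5, a receptor for A-class ephrins, had its start peak in both lists. The control summit lay 561 bp and the MICAL1-FL summit 510 bp after the start, 51 bp from each other, with depths of 9 and 7 fragments. Both are the strongest Epha5 peak of their list by p-value. Depth is the number of ChIP fragments stacked at the summit, worked out from the authors' fold and p-value. The background of these peaks was 1.85 and 1.62 fragments, near the low end of the 1.62 to 3.70 fragments found over all peaks of the members.

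Epha7, another A-class receptor, had a 369 bp control peak 280 bp after the start, 7 fragments deep. Its MICAL1-FL peak was the widest of all in these genes, at 2014 bp, ran across the start and had its summit at 1451 bp. It was 8 fragments deep over a background of 3.07, which gave a fold of only 2.21. The summits lay 1171 bp apart, so the overlap of this pair does not place both at the same point. Epha3 had a control peak 364 bp after the start (5 fragments) and no MICAL1-FL summit closer than 6744 bp. Epha8, the shortest member with a span of 27.4 kb, had 1 peak in each list. Its control peak lay 567 bp after the start and its MICAL1-FL peak 13.9 kb after it, both 4 fragments deep, the lowest depth seen in these genes.

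Epha4 and Epha6 had no peak within 1 kb of the start of their spans, but each had a pair of overlapping peaks not far inside. Epha4, which is known to bind ephrins of both classes, carried a control summit at 1671 bp (9 fragments) and a MICAL1-FL summit at 1507 bp (8 fragments). The pair at Epha6 lay 4807 and 4701 bp after the start of the span, with depths of 7 and 9 fragments. The start that the promoter table lists for Epha6 lies there. The control peak was 192 bp from it and the MICAL1-FL peak ran across it, with summits at −573 and −679 bp, where a minus sign means upstream. A further control peak had its summit 849 bp after the listed start. With the listed starts, a choice made after these peaks had been seen, 9 control and 7 MICAL1-FL members had a start peak.

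Ephb1, an EphB receptor known for routing retinal axons at the optic chiasm, had a control peak at chr9:102354235-102354644, with its summit 183 bp after the start. It was 10 fragments deep with a fold of 4.20 and a q-value of 0.0338. The MICAL1-FL peak nearest the start had its summit at 1255 bp and a depth of 7 fragments. It overlapped not this peak but a second control peak, whose summit was at 1502 bp. Ephb2 codes for a receptor known to associate with NMDA receptors at synapses. A control peak of 5 fragments there covered the start of the span, with its summit at −103 bp. This control peak lay 69 bp from the start that the promoter table lists. The nearest MICAL1-FL peak, of 6 fragments, lay 704 bp after the start of the span and did not overlap the control peak.

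Of the ligands, Efna5, which codes for the lipid-anchored ephrin-A5 that repels retinal axons in the midbrain, had 2 start peaks in each list. The control peak over the start, at chr17:62881237-62881681 with its summit at −168 bp, was 11 fragments deep with a fold of 4.58 and a q-value of 0.00518. No MICAL1-FL peak overlapped it, and the nearest, 6 fragments deep, had its summit at −638 bp. The other start peaks of Efna5 did coincide, with summits at 593 and 609 bp and depths of 7 and 6 fragments. A further overlapping pair lay upstream, with summits at −2666 and −2438 bp. Efnb2, the gene of the transmembrane ligand ephrin-B2, had a control peak of 1054 bp and a MICAL1-FL peak of 1134 bp that overlapped over 797 bp. Their summits lay 1164 and 762 bp after the start, with depths of 6 and 8 fragments. As at Efna5, an upstream pair was present, with summits at −3262 and −3167 bp.

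Over the whole length of the genes few peaks were found in both lists. Peaks of the lists overlapped by at least 1 bp at 15 places. This is 10.6% of the control list at these genes (6.08 to 16.9, exact binomial) and 9.80% of the MICAL1-FL list (5.59 to 15.7). Over the spans of all protein-coding genes with 5 kb on either side the shares were 8.06% and 8.69%, inside these intervals. Epha8 was the member with no such pair. Of genes with at least 10 peaks in both lists together, 59.2% had an overlapping pair, and so did all 9 members of that kind. The number of pairs was 1 at Epha3, Epha4, Epha6, Epha7 and Ephb1, 2 at Epha5 and Ephb2, and 3 at Efna5 and Efnb2. Overlaps ran from 7 bp, at a second Epha5 pair, to 797 bp, with a median of 260 bp, and summits lay within 250 bp of each other in 10 of the 15 pairs.

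The pairs were concentrated near the starts. Of the control peaks within 3 kb of a start, 8 of 15 overlapped a MICAL1-FL peak (53.3%, 26.6 to 78.7), and of those farther away 7 of 126 (5.56%, 2.26 to 11.1). For MICAL1-FL peaks the counts were 8 of 14 (57.1%, 28.9 to 82.3) and 7 of 139 (5.04%, 2.05 to 10.1). All protein-coding genes with a strand showed the same order, with 18.8% and 20.01% shared within 3 kb of a start and 5.82% and 6.30% farther away. Far from their starts the 10 genes thus lay close to all genes, and near their starts above them. Sharing near starts was not worked out for long genes alone, though 8 of the 10 members are at least 100 kb long. The 8 pairs near the starts lay at 6 genes, and the intervals treat each peak as separate. The distance of 3 kb was chosen after the pairs had been seen. At 1 kb the counts were 4 of 9 in the control list (44.4%, 13.7 to 78.8) and, for MICAL1-FL, 5 of 7 (71.4%, 29.0 to 96.3), against 24.6% and 25.6% of all genes, so that the control interval then included the value of all genes. Peaks near the starts were also wider and deeper. In the control list their median width was 410 bp and their median depth 7 fragments, against 319 bp and 5 fragments farther away. In the MICAL1-FL list these values were 517 bp and 6 fragments, against 336 bp and 5 fragments. The same held over all protein-coding genes with a strand. Their peaks within 3 kb of a start had a median width of 363 bp in both lists, narrower than at the 10 genes. Farther away their medians were 332 bp (control) and 330 bp (MICAL1-FL). Their median depth in both lists was 6 fragments near starts and 5 farther away. A wide peak overlaps another more easily, and the part of width in these shares was not tested.

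**Figure D2:**
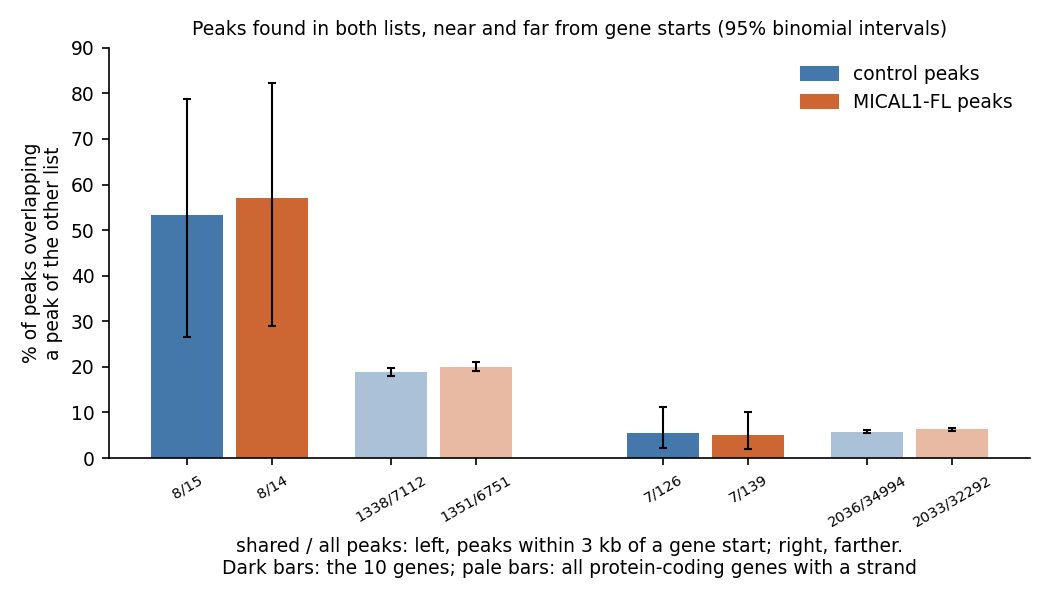
Bars give the percentage of peaks that overlap a peak of the other list, with exact 95% binomial intervals, for peaks within 3 kb of a gene start (left) and farther away (right). Dark bars are the 10 genes and pale bars all protein-coding genes with a strand. The dark bars stand at 53.3% and 57.1% near starts, and at 5.56% and 5.04% farther away.

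Away from the starts, overlapping pairs were found at Epha3 (172 kb into the gene), Epha5 (43.1 kb), Ephb2 (81.9 and 137 kb), Efna5 (39.9 kb) and Efnb2 (11.9 kb), all distances of the control summit. The Epha3 pair was 5 and 7 fragments deep, and its MICAL1-FL peak had the lowest p-value of that list in Epha3, tied with a peak 237790 bp after the start. The Ephb2 pairs were 6 and 5, and 5 and 5, fragments deep. None of these 6 places, which leave out the Epha6 pair described above, had a peak deeper than 7 fragments in either list.

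The 10 genes differed widely in how densely they carried peaks, and the EphA receptors had the lowest values. Together the EphA genes had 29.9 control peaks per Mb (22.8 to 38.4, exact Poisson interval), the EphB genes 84.2 (63.3 to 109.9) and the ephrin genes 75.9 (49.6 to 111). In the MICAL1-FL list the values were 41.6 (33.2 to 51.4), 60.8 (43.2 to 83.1) and 84.7 (56.7 to 122). All protein-coding spans together had 45.9 and 42.5 peaks per Mb. In the control list the EphA interval lay below both others and below all genes. In the MICAL1-FL list it met that of the EphB genes and held the value of all genes.

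Single genes did not all follow their class. Efnb2 was densest, with 8 control and 10 MICAL1-FL peaks, or 148 and 185 peaks per Mb. Ephb2 came next in the control list with 22 peaks (111 per Mb), and had 15 MICAL1-FL peaks (75.5 per Mb). Epha4 stood apart from the other EphA genes, with 13 and 12 peaks (82.3 and 76.0 per Mb). Ephb1 had 32 control and 24 MICAL1-FL peaks (72.3 and 54.2 per Mb), and Efna5 had 18 and 19 (62.4 and 65.9 per Mb). The other long EphA genes, Epha3 (11 and 16 peaks, 33.3 and 48.4 per Mb), Epha5 (9 and 15, 24.1 and 40.2 per Mb), Epha6 (24 and 33, 24.5 and 33.7 per Mb) and Epha7 (3 and 8, 18.2 and 48.7 per Mb), were lower. Epha8, with 1 peak in each list, had 26.7 per Mb in both, with an interval from 0.676 to 149. Intervals of neighbours in this order overlapped throughout.

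Density was also set beside that of the 500 kb on each side of a gene and that of other genes of like span (0.8 to 1.25 times). In the control list, 3 of the sparse genes lay at the level of their surroundings. The flanks held 33 control peaks per Mb at Epha3, 24 at Epha5 and 24 at Epha6, beside the genes' own 33.3, 24.1 and 24.5. Genes of like span had medians of 49.9, 49.6 and 41.3. Epha7 (18.2, flanks 33) and Epha8 (26.7, flanks 57) were below their flanks, within wide intervals. In the MICAL1-FL list the flanks held 36 peaks per Mb at Epha3, 31 at Epha5, 27 at Epha6 and 24 at Epha7, all lower than the genes' own 48.4, 40.2, 33.7 and 48.7, and 46 at Epha8, above its 26.7. The intervals of these genes all included the flank values. In the control list the dense genes had values above those of their flanks. These held 46 peaks per Mb beside Ephb2, 47 beside Epha4, 55 beside Efnb2, 61 beside Ephb1 and 45 beside Efna5. The intervals of Epha4 (43.8 to 141), Ephb1 (49.5 to 102) and Efna5 (37.0 to 98.7) included the flank value. In the MICAL1-FL list Ephb1, at 54.2, lay below its flanks, at 58. In both lists the interval of Efnb2 lay above its flanks (55 and 47) and above genes of like span (33.2 and 32.6), and that of Ephb2 did so in the control list (69.4 to 168, against 46 and 46.8). The flanks of Ephb2 and Epha8 include each other's gene, since they lie close together on chromosome 4. The flank values of Epha8 thus take in the 22 control and 15 MICAL1-FL peaks of Ephb2. GC content and mappability along the genes were not measured here.

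**Figure D3:**
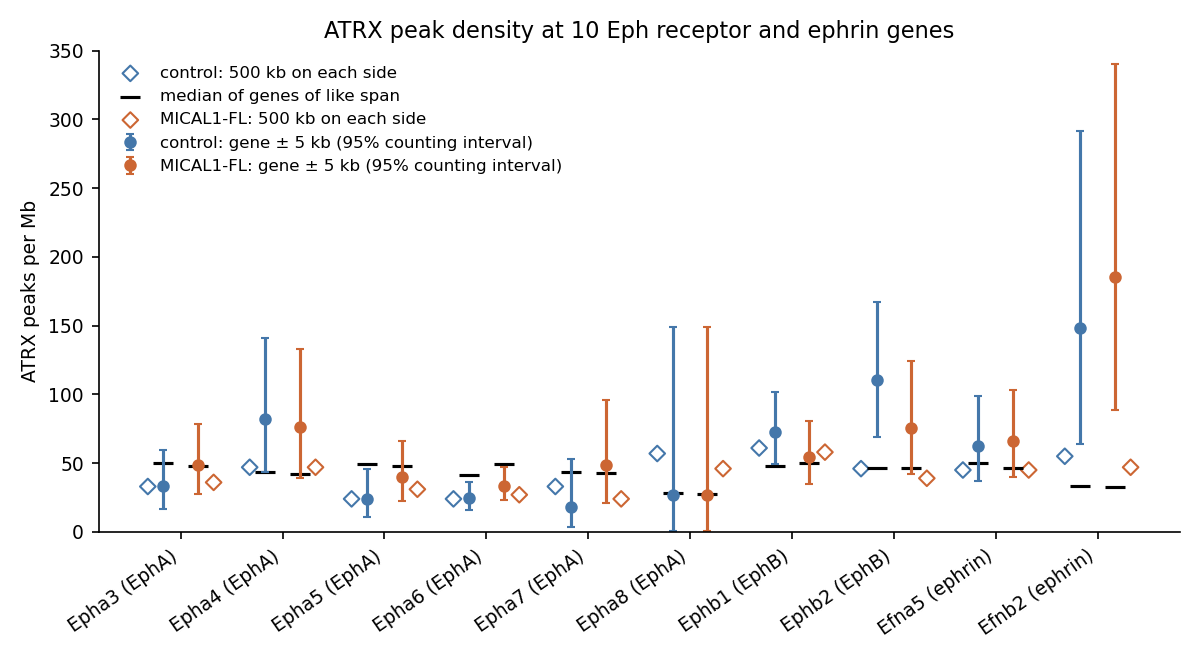
Filled points are ATRX peaks per Mb of each gene with 5 kb on either side, with exact 95% Poisson intervals, open diamonds the density in the 500 kb on each side, and black dashes the median of genes of like span, for control (blue) and MICAL1-FL (orange). Efnb2 has the highest values, 148 and 185 peaks per Mb, and Epha3, Epha5 and Epha6 lie at the level of their flanks in the control list.

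Within the genes, summits were spread along the whole length, here split into 3 equal stretches. Of 135 control summits inside the 10 genes, 56 were in the stretch nearest the start (41.5%, 33.1 to 50.3), 36 in the middle and 43 in the last. Of 146 MICAL1-FL summits, 53 were in the first stretch (36.3%, 28.5 to 44.7), 50 in the middle and 43 in the last. Over all protein-coding genes with a strand the first stretch held 39.2% in both lists, and over those of at least 100 kb 35.7% and 35.5%. Epha5 was the most uneven, with 7 of 9 control and 9 of 15 MICAL1-FL summits in its first stretch. A stretch of 179 kb in its middle, 49.2% of the gene, held no control summit, and in the MICAL1-FL list the last 119 kb held none. Epha7, with only 3 control peaks, had no control summit over 94.5 kb, 61.2% of its length, and 5 of its 8 MICAL1-FL summits lay there. Such stretches were picked as the longest without a summit of 1 list, so they are not a comparison between the lists. They were not measured over all genes. Epha6, the longest member at 969 kb, was the other extreme, with 6, 10 and 8 control and 8, 12 and 13 MICAL1-FL summits from first to last stretch. In Ephb1 14 of 32 control summits were in the first stretch and 12 of 24 MICAL1-FL summits in the last. Intervals for such small counts are wide, and the first-stretch shares of Ephb1, 43.8% (26.4 to 62.3) and 29.2% (12.6 to 51.1), overlap. Some peaks, 11 in control and 12 in MICAL1-FL neurons, also lay in another annotated gene, most of them in the EphB genes (8 and 7). Among them were the Epha5 start peaks of both lists (Gm42163) and the Ephb2 control peak over the start of the span (Gm31536). So was the Epha3 control peak 30.3 kb after the start (Gm41466). Such peaks were not counted over all genes.

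**Figure D4:**
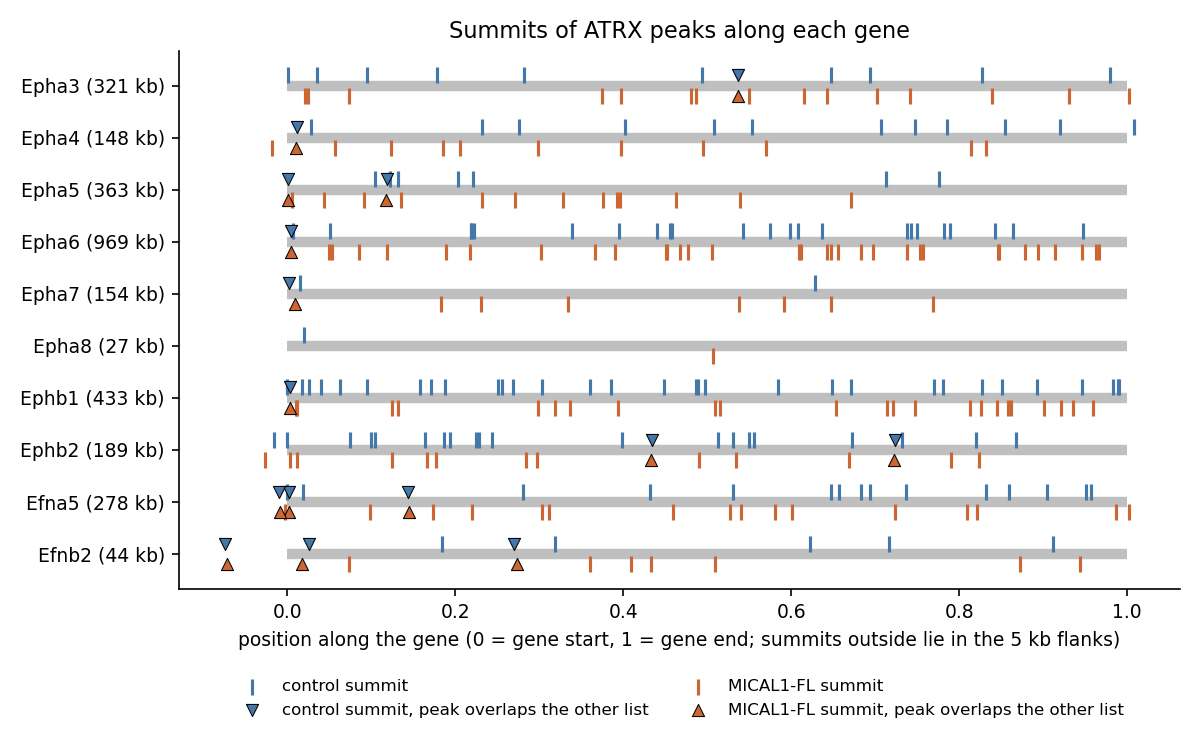
Each grey bar is a gene drawn from its start (0) to its end (1), with control summits above it in blue and MICAL1-FL summits below it in orange; triangles mark peaks that overlap a peak of the other list. Triangles gather at the starts, while the other summits are spread along the genes, with 56 of 135 control summits in the first stretch.

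Nearly all peaks were shallow. At most 6 fragments stood behind 113 of 141 control peaks (80.1%) and 132 of 153 MICAL1-FL peaks (86.3%), where all protein-coding spans had 82.0% and 84.6%. The q-value was 1 for 128 control and 146 MICAL1-FL peaks, a count that was not made for all protein-coding spans. It was below 0.05 for 3 of the control peaks (2.13%) and 0 of the MICAL1-FL peaks, where 0.411% and 0.316% of the peaks in all protein-coding spans had such a value. The 3 were the start peaks of Ephb1 and Efna5 already described and a peak in Epha3, 30.3 kb after the start, at chr16:63833315-63834389. The Epha3 peak was the deepest of the members, with 14 fragments over a background of 2.50, a fold of 4.28 and a q-value of 0.00243. No MICAL1-FL peak overlapped any of the 3. How many of the 223 such control peaks in all protein-coding spans overlapped one was not counted, so this is not read as a trait of these genes. The strongest MICAL1-FL peak by p-value lay in Ephb1, 56.8 kb after the start, with a depth of 9 fragments and a q-value of 0.139. The lists were called against backgrounds that need not have the same scale, so depths and q-values are not read as a change between conditions.

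Peak numbers did not separate the conditions at any single gene. Of the 9 members with at least 10 peaks in both lists together, 6 had more MICAL1-FL than control peaks and 3 fewer. Of all 2602 such genes, 38.7% had more and 52.4% fewer. No member had a ratio whose interval excluded 1. The largest ratio was that of Epha7, at 2.67 (0.640 to 15.6), and the lowest that of Ephb2, at 0.682 (0.329 to 1.38).

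By class the ratios went in opposite directions. The 6 EphA genes had 85 MICAL1-FL peaks against 61 in control neurons (ratio 1.39, 0.991 to 1.97), with more MICAL1-FL peaks at 4 of them, fewer at Epha4 and as many at Epha8. The 2 EphB genes had 39 against 54 (ratio 0.722, 0.466 to 1.11), and both had fewer. The ephrin genes had 29 against 26 (ratio 1.12, 0.634 to 1.97). All protein-coding spans had 0.927 (0.916 to 0.938), which the EphB and ephrin intervals include and the EphA interval does not. The EphA value depended on which peaks were kept. With −log10 p of at least 2 it was 1.375 (0.898 to 2.12, 55 peaks against 40), an interval that includes the 0.923 of all genes. With at least 6 fragments it was 0.923 (0.507 to 1.67, 24 peaks against 26), where all genes had 0.855. Both settings were added after the data were seen. That of the EphB genes was 0.615 with at least 6 fragments (0.308 to 1.19, 16 peaks against 26). For the 10 genes together the ratio was 1.09 (0.858 to 1.37). Whether the classes differ in their ratio was not tested, as there is 1 library of each kind.

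**Figure D5:**
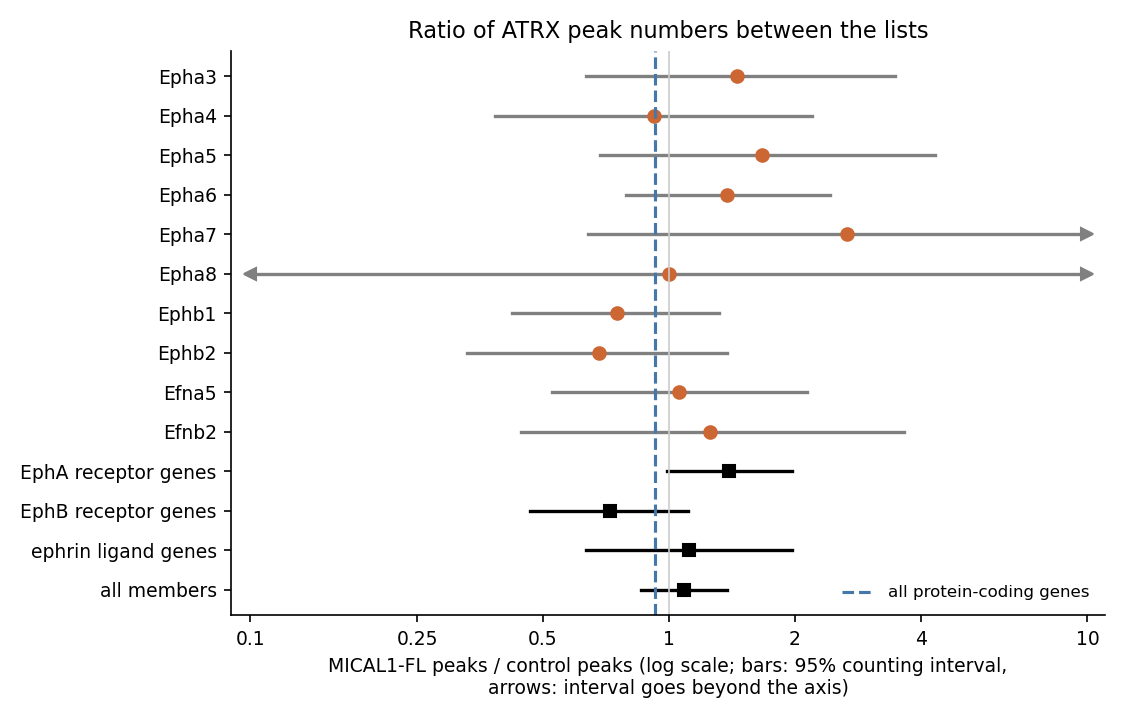
Points give MICAL1-FL over control peak numbers on a log scale for each gene (circles) and for each class and all 10 genes (squares), with exact 95% conditional binomial intervals (arrows run beyond the axis), and the dashed line is the ratio of all protein-coding spans, 0.927. All deposited peaks were kept here. Every gene's interval includes 1, and of the 3 classes the EphA class, at 1.39, has an interval that leaves out the dashed line.

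The other genes of the pathway were described with lists of names. The 12 remaining family genes (Epha1, Epha2, Epha10, Ephb3, Ephb4, Ephb6, Efna1, Efna2, Efna3, Efna4, Efnb1 and Efnb3) are short and held 23 peaks in each list (ratio 1, 0.536 to 1.87). More MICAL1-FL peaks were found at 4, more control peaks at 5, and Epha2 had 0 in both. Those with the most peaks were the lipid-anchored ligand genes Efna3 (2 control and 4 MICAL1-FL) and Efna4 (1 and 5), and the receptor genes Ephb4 (4 and 1) and Epha10 (3 and 2). No peak was counted for more than 1 of the genes. Of the 11 with a known strand, 3 had a start peak in each list and 1 of them in both. The 22 partners in signalling, such as adaptors and exchange factors, held 225 MICAL1-FL peaks against 262 in control neurons (ratio 0.859, 0.715 to 1.03), with 13 genes higher in the control list and 7 lower. Most peaks were at Grip1, a scaffold that binds B-class ephrins (47 and 43), the exchange factor genes Tiam1 (41 and 29) and Kalrn (36 and 32), and Sipa1l1 (32 and 21), which codes for a synaptic GTPase-activating protein. Of 20 partners with a known strand 8 had a start peak in each list, and 5 in both.

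Among 2343 other genes of at least 100 kb with a peak in each list, the one nearest in its pair of densities was sought for the 4 members with the most peaks, with Ephb2 and Efna5 tied, by the distance between log2 peak densities over the 2 libraries. It was Aox2 for Ephb1 (distance 0.0055, on 8 control and 6 MICAL1-FL peaks), Cpeb1 for Epha6 (0.032, on 3 and 4 peaks), Jmjd1c for Ephb2 (0.024, on 19 and 13 peaks) and Prickle2 for Efna5 (0.033, on 22 and 23 peaks). Each distance rests on 2 values per gene.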

How the data were processed

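ATRX ChIP-seq peak lists of 2 libraries, control (mCherry) and MICAL1-FL, were used, and the control input, the third sample of the series, was not analysed here. Groups came from the sample titles. The submitters' processing notes name ChIPseeker 1.26.2, MACS 1.4.2, SAMtools 1.9 and Bowtie 1.3.0, without saying what each did. Not given in the sources used here are the threshold for calling and the build. The authors deposited 1 list per ChIP sample. The score the authors deposited was the whole part of 10 times the −log10 p in every peak. The fold is the authors' ratio of ChIP over background, and the −log10 p and −log10 q are the authors' own, with a largest p of 0.0498 and 0.0496. The summit is the authors' offset.

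Depth in fragments was worked out from fold and p, taking fold as (pileup + 1)/(background + 1) and p as a Poisson tail. A whole pileup matched −log10 p within 0.02 for 99.95% of control and 99.97% of MICAL1-FL peaks, which is an inference.

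Gene spans were those of RefSeq GRCm38.p6, and strand was taken from its promoter table, which gave 1 strand for 17492 of 21887 protein-coding genes. That the files use this build was read from the gathering of summits at gene starts. Summits within 1 kb of a start were 3.03 (control) and 3.17 (MICAL1-FL) times as frequent per base as at 3 to 5 kb.

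With 1 library per condition no test was made. Counts have exact Poisson, ratios exact conditional binomial and shares exact Clopper-Pearson intervals (Python 3.11.15, SciPy 1.17.1). The members, lists and rules were chosen with earlier results of these data known. All members were named; peaks were named if strongest by p in a gene, at q below 0.05, within 1 kb of a start or shared. The flanks of 500 kb, the genes of like span, the GC and motif search, the longest empty stretches, the sharing by distance and depths of at least 6 fragments were added after the data had been seen. Counting and sharing steps were tested on simulated data.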

Additional observations from a re-analysis of the deposited data

How the results depend on the processing

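Of 51 alternatives, 43 left a value within its counting interval, or a count within 1.5 times, and 8 did not. With the 50000 peaks of highest −log10 p in each list, ties in random order, the genes held 61 control and 79 MICAL1-FL peaks, which follows from the smaller lists. Peaks up to 1 kb apart counted as shared gave 24.1% of control and 20.9% of MICAL1-FL peaks, and an overlap of at least 50% of both peaks 4.26% and 3.92%, as these definitions are looser and stricter. With depths of at least 6 fragments, added after the data were seen, the log2 ratio of the 10 genes was −0.23, against 0.12 with every peak. The EphA ratio was 0.923, against 1.39. All protein-coding spans were lower at this setting as well, with a ratio of 0.855, beside 0.851 for the 10 genes. The cause of these lower ratios was not tested. The log2 ratio of the 10 genes stayed above 0 under all other settings tried, including each gene left out in turn. Most peaks are a few fragments deep, so a place called in 1 list and not in the other is not shown to differ.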
